A study of Mus musculus with 22 samples.

Results

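The genes of the proteasome were followed in astrocyte ribosome-associated mRNA of the mouse optic nerve after an elevation of intraocular pressure. Members were the protein-coding genes whose symbol starts with Psma, Psmb, Psmc, Psmd, Psme, Psmf or Psmg and a digit, without Psmb8 and Psmb9, and 48 of the 29367 genes in the count table met this rule. They comprised 17 core subunits (Psma and Psmb), 20 regulatory particle genes (Psmc and Psmd), 6 genes of activators and an inhibitor (Psme and Psmf) and 4 assembly chaperones of the core (Psmg). The remaining gene, Psmc3ip, matches by name but encodes no proteasome subunit, so it was kept out of the regulatory group. The rule used gene names and no measured value.

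RNA was sequenced from 2 regions, the optic nerve head (ONH) and the optic nerve proper (ONP), with 4 libraries per region at 7 days and 7 per region at 30 days after microbeads were injected to block aqueous outflow. Each library was a pool of 4 mice, 2 male and 2 female, aged 3 to 4 months. Every group carried the same alleles: Rpl22 HA/HA, from the strain B6J.129(Cg)-Rpl22tm1.1Psam/SjJ, and a GFAP-Cre transgene (73.12), under which Cre acts in cells with an active Gfap promoter and marks their ribosomes with HA. No uninjured eyes were analysed here, so the comparisons are between regions and between times after injection, and a p-value measures the spread between pools. Differences in a bulk sample between fewer cells of a type and less RNA per cell cannot be told apart.

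The 26S proteasome degrades proteins that carry ubiquitin chains. Its core is a stack of rings: the alpha subunits (Psma) form the outer rings and gate the entry, and the beta subunits (Psmb) form the inner rings, where Psmb5, Psmb6 and Psmb7 cut peptides. The regulatory particle caps the core, with a ring of ATPases (Psmc) that unfolds the substrate and non-ATPase subunits (Psmd) that bind ubiquitin, hold the lid together or remove the chain. In cells exposed to interferon, Psmb8, Psmb9 and Psmb10 take the places of the catalytic subunits, and the activator of Psme1 and Psme2 can replace the regulatory particle. Transcription of many subunit genes is under the factor NRF1 (Nfe2l1) when proteasome activity is low. Astrocytes are known for raising immunoproteasome subunits under inflammatory signals.

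The libraries held 16292489 to 33307092 counts, and 3 counts, the smallest amount taken as detectable, corresponded to 0.0901 to 0.184 CPM (counts scaled to the size of the library), counting error only. Astrocyte markers (9 genes, Gfap and Aqp4 among them) summed to 14524 to 33489 CPM over the 22 libraries and no marker was at 0 throughout. Oligodendrocyte markers (6 genes) summed to 13150 to 40233 CPM in the ONH and 24886 to 104696 CPM in the ONP. In the ONP at 7 days the oligodendrocyte sum, 79836 to 104696 CPM, was above the astrocyte sum in every library. Markers of neurons and photoreceptors (6 genes, 86.4 to 4952 CPM in the ONH and 14.4 to 140.0 CPM in the ONP) and of pigment cells (4 genes, 41.3 to 523 CPM against 1.02 to 3.98 CPM) were higher in the ONH. Microglia and macrophage markers (8 genes) overlapped between the regions at 30 days, with 94.7 to 1550 CPM in the ONH and 140.1 to 1926 CPM in the ONP. The part of these cells in the results below was not tested.

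Proteasome mRNA took under 1% of each library, and a larger share in the ONH. The 48 genes took a median of 0.665% of all counts in the ONH at 7 days, 0.689% in the ONH at 30 days, 0.533% in the ONP at 7 days and 0.585% in the ONP at 30 days. Per kilobase of transcript and averaged over the 4 groups, the highest level was that of Psmb6, a catalytic subunit, at 327 CPM per kilobase. It was followed by the ATPase Psmc5 at 261 and the catalytic subunit Psmb5 at 260.4 CPM per kilobase. The third catalytic subunit, Psmb7, had a level of 51.9 CPM per kilobase. Psmd14, the enzyme of the lid that removes the ubiquitin chain, was at 50.8 CPM per kilobase and the ubiquitin receptor Psmd4 at 144 CPM per kilobase. Among the activators, Psme2 (154 CPM per kilobase) and Psme1 (119.9 CPM per kilobase) were far above Psme3 (26.7 CPM per kilobase) and Psme4 (1.94 CPM per kilobase). The lowest levels were those of Psmb11, which is known from the thymic cortex, at 0.122 CPM per kilobase and Psma8, known from the testis, at 0.545 CPM per kilobase. Their counts per library ran from 0 to 82 and from 0 to 58. Psmb11 passed the filter on low counts only in the comparison of times in the ONP and in the interaction, and Psma8 did not pass it for ONH against ONP at 30 days. The other 46 members were tested in every comparison.

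Core and regulatory genes differ in their promoters, which are shown because the comparisons below set these classes against each other. RefSeq windows from 250 bases before to 50 bases after the start site (GRCm38.p6) were found for 40 of the 48 members and gave 43 windows, among 32851 windows of all genes. Those of Psma8, Psmb1, Psmb2, Psmb7, Psmc3, Psmd3, Psmd7 and Psmg2 were not used here. An ETS motif (CCGGAAG, on either strand) was in 10 of the 18 windows of regulatory genes (55.6%) and in 1 of the 14 windows of core genes (7.14%), against 8.86% of all promoters. The CCAAT box, the motif of NF-Y, was in 7 of the 14 core windows and 27.8% of regulatory windows, against 37.4% of all promoters. The motif AAGATGG, bound by YY1, was in 14.3% of core and 22.2% of regulatory windows, against 6.34%. The core of the antioxidant response element, TGACNNNGC, which NRF1 and NRF2 bind, was in 6 of the 43 member windows and 12.4% of all promoters. No motif searched is contained in another. These are matches of letters and not sites of binding. One core structural subunit (Psmb3, chr11:97703184-97703483, plus strand), 1 catalytic subunit (Psmb5, chr14:54617946-54618245, minus strand), 1 ATPase (Psmc1, chr12:100109952-100110251, plus strand) and the receptor Psmd4 (chr3:95042565-95042864, minus strand) are printed from 5′ to 3′ along the gene. Capitals mark each match to a motif searched: CCAAT or its reverse ATTGG in Psmb3, Psmc1 and Psmd4, the antioxidant element in Psmb5, the ETS motif in Psmc1 (reverse strand) and Psmd4, and AAGATGG in Psmc1.
Psmb3: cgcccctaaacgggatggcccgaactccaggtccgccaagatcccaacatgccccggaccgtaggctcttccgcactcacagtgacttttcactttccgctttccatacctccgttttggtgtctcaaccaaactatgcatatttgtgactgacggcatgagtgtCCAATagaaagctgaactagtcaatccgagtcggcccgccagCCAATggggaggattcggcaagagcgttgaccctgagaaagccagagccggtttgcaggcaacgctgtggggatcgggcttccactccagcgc
Psmb5: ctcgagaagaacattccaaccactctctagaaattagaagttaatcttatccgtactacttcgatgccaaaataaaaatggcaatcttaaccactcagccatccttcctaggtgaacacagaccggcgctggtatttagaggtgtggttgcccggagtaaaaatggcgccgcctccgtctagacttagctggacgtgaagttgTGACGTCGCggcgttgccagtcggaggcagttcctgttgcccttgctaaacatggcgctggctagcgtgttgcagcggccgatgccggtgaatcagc
Psmc1: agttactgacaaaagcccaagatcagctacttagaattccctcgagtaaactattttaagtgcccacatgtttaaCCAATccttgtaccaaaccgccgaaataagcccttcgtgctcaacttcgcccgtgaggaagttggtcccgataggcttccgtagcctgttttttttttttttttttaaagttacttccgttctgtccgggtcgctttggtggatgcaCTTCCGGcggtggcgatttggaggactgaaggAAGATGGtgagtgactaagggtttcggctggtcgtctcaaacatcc
Psmd4: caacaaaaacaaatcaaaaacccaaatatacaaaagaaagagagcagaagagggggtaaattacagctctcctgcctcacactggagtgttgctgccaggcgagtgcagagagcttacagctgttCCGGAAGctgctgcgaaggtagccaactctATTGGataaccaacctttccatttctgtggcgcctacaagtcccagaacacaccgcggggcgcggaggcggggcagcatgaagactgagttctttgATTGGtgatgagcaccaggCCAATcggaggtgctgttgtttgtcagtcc

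At 30 days more proteasome genes were higher than lower in the ONH relative to the ONP. Differences are given as log2 fold change (log2FC), and a gene counted as higher or lower when its Benjamini-Hochberg adjusted p in edgeR's quasi-likelihood test was under 0.05. Of the 46 members tested, 25 were higher and 2 lower, 58.7% in all, against 41.8% of all genes tested (21.8% higher). Of the 15 core subunits tested, 14 were higher in the ONH, and Psma1 did not pass the test (log2FC 0.20, adjusted p = 0.0884 with edgeR). Of the 20 regulatory genes, 6 were higher and 1 lower. The median log2FC was 0.37 over core subunits and 0.11 over regulatory genes, and the median over all genes tested was -0.01. The groups did not overlap for 11 of the 46 members, all higher in the ONH, whereas this held for 9.26% of all genes. Both statements on core and regulatory genes depend on transcript length, which is taken up after the single genes.

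**Figure D1:**
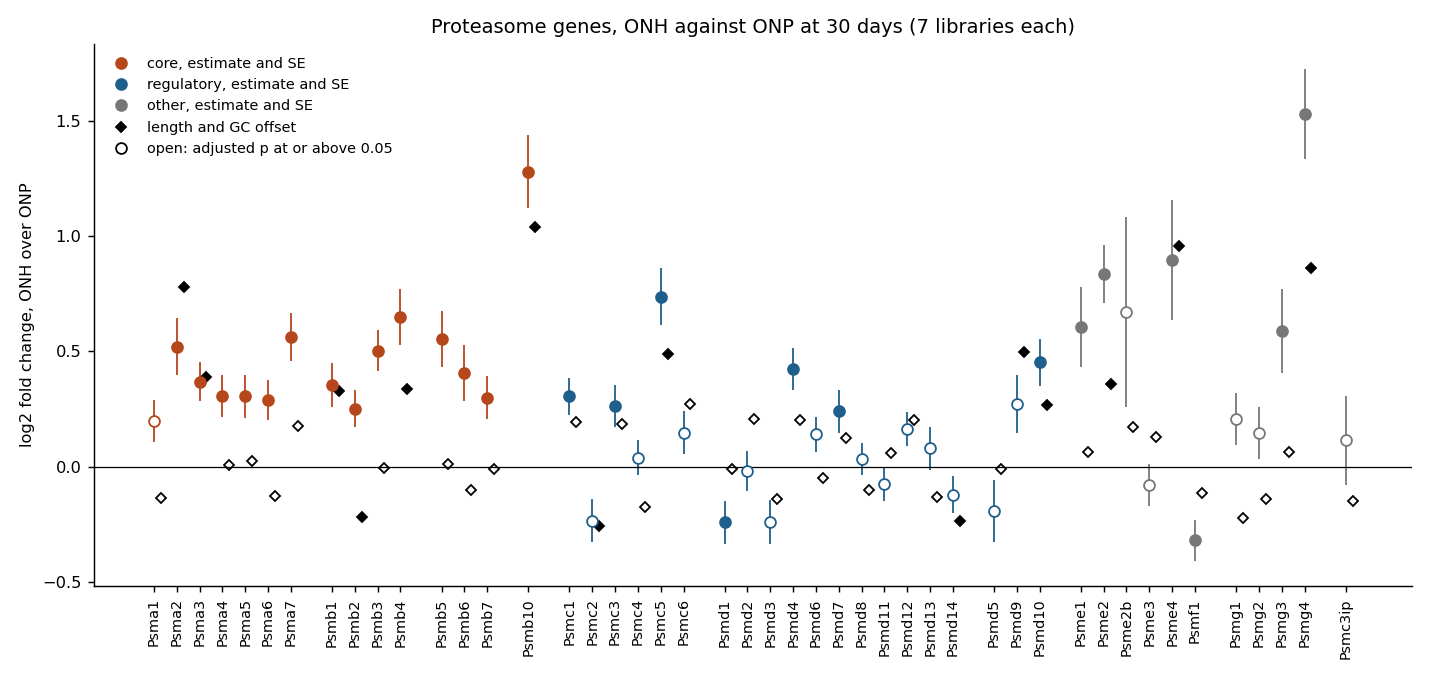
Log2 fold change, ONH over ONP at 30 days, for the 46 members tested, as a circle with its standard error (7 libraries per region). Filled symbols mark an adjusted p under 0.05 with edgeR, and diamonds give the estimate after an offset for transcript length and GC content: most circles of core genes lie above 0 and most of their diamonds near 0, while those of Psmb10, Psme4 and Psmg4 stay high.

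The catalytic subunits were all higher in the ONH at 30 days in this fit. With the offset for transcript length described below none of the 3 was called, and the directions of Psmb6 and Psmb7 turned. Psmb5, which has the chymotrypsin-like activity, had 193, 250.5 and 389 CPM (lowest, median and highest) in the ONH and 166, 172 and 184 CPM in the ONP. No ONH library was as low as any ONP library, and the log2FC was 0.55 (SE 0.121, adjusted p = 0.00183 with edgeR). Psmb6, which has the caspase-like activity, had 245, 312 and 472 CPM in the ONH and 210.5, 249.9 and 283 CPM in the ONP. These ranges overlapped (log2FC 0.41, SE 0.122, adjusted p = 0.0142). Psmb7, which has the trypsin-like activity, had 54.3, 63.4 and 78.4 CPM in the ONH and 48.2, 53.6 and 57.7 CPM in the ONP, with overlap. Its log2FC was 0.30 (SE 0.0937, adjusted p = 0.0178), and 34.9% of its exonic bases are shared with Nek6 on the opposite strand, which unstranded counts cannot separate.

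The structural subunits of the beta ring and the alpha ring, apart from Psma1, were also higher in this fit, and the directions of Psma6, Psmb2 and Psmb3 turned with the offset for transcript length described below. Psmb3 had 177, 217 and 266 CPM in the ONH and 132, 153 and 158 CPM in the ONP, with no overlap (log2FC 0.50, SE 0.0879, adjusted p = 0.00034 with edgeR). Psmb1 had 169, 216 and 252 CPM in the ONH and 147, 168 and 180.1 CPM in the ONP, where the ranges overlapped (log2FC 0.36, SE 0.095, adjusted p = 0.00716). Psma3, a subunit of the gate, had 237, 278 and 351 CPM in the ONH and 203, 213 and 228 CPM in the ONP. All 7 ONH libraries were above all 7 ONP libraries for Psma3, with a log2FC of 0.37 (SE 0.0856, adjusted p = 0.00279). The other structural and alpha genes called had log2FC from 0.25 (Psmb2) to 0.65 (Psmb4). With the transcript length offset Psmb2 was called lower.

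Psmb10 (ENSMUSG00000031897, GRCm38 chr8:105935735-105938444, minus strand), the interferon-induced counterpart of Psmb7, differed most among the core subunits. It had 93.4, 136 and 189 CPM in the ONH and 39.5, 54.4 and 81.2 CPM in the ONP. The lowest ONH library was above the highest ONP library, with a log2FC of 1.28 (SE 0.16, adjusted p = 2.09e-05 with edgeR). Per length, the mean ratio of Psmb10 to Psmb7 was 1.86 ± 0.401 (SD, n = 7) in the ONH and 0.940 ± 0.212 (SD, n = 7) in the ONP. The ratio ran from 1.42 to 2.34 in the ONH and from 0.606 to 1.29 in the ONP, so that Psmb10 exceeded its constitutive counterpart in every ONH library. Psmb8 and Psmb9, in contrast, stayed below their counterparts Psmb5 and Psmb6 in every library of both regions. The mean ratio of Psmb8 to Psmb5 was 0.263 in the ONH and 0.184 in the ONP. That of Psmb9 to Psmb6 was 0.0594 in the ONH and 0.0350 in the ONP. Within the ONH the library with the highest sum of microglia and macrophage markers (1550 CPM) had 123 CPM of Psmb10. The highest Psmb10 level, 189 CPM, was in a library with 218 CPM of these markers. ONH replicates 2 and 3, with the lowest marker sums (94.7 and 109 CPM), had the lowest Psmb10 levels (107 and 93.4 CPM). In the ONP, replicate 7 had both the highest Psmb10 level and one of the highest marker sums (1923 CPM). The part of these cells in the level of Psmb10 was not tested.

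Of the activator genes, Psme1, Psme2 and Psme4 were higher in the ONH and Psme2b and Psme3 did not pass the test. Psme1 had 64.6, 102 and 113 CPM in the ONH and 47.1, 52.5 and 101 CPM in the ONP. The ranges overlapped, since ONP replicates 5 (70.8 CPM) and 7 were above the lowest ONH libraries, and the log2FC was 0.61 (SE 0.175, adjusted p = 0.0115 with edgeR). Psme2, its partner in the same ring, had 125, 186 and 278 CPM in the ONH and 97.5, 102 and 115 CPM in the ONP. Here the regions did not overlap (log2FC 0.84, SE 0.126, adjusted p = 0.000106). Psme2b is a near copy of Psme2, so reads may be divided between them, and its log2FC was 0.67 (adjusted p = 0.207). Psme3, an activator found mainly in the nucleus, had 55.9, 73.2 and 82.1 CPM in the ONH and 73.1, 76.0 and 80.8 CPM in the ONP, with overlap (log2FC -0.08, adjusted p = 0.506). Psme4 (ENSMUSG00000040850, GRCm38 chr11:30771726-30880361, plus strand), which encodes the activator PA200, had 10.2, 12.01 and 23.7 CPM in the ONH and 4.86, 7.09 and 14.2 CPM in the ONP. Its ranges overlapped (log2FC 0.90, SE 0.263, adjusted p = 0.0124). Psmf1, the inhibitor PI31, was lower in the ONH, with 49.2, 54.0 and 64.6 CPM against 63.4, 69.5 and 73.5 CPM in the ONP. The ranges overlapped (log2FC -0.32, SE 0.0889, adjusted p = 0.00897).

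**Figure D2:**
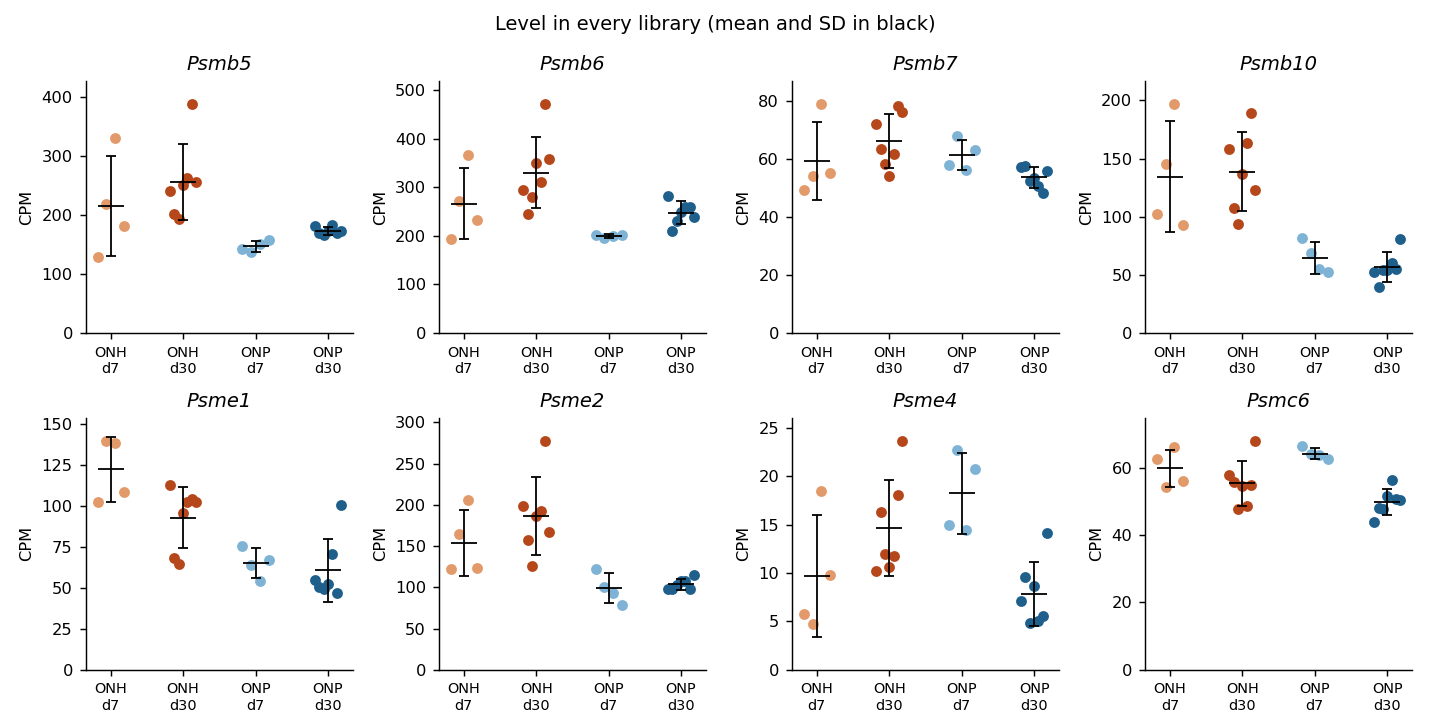
Level in every library, in CPM normalised by TMM, of 8 members in the 4 groups (4 libraries per region at 7 days, 7 at 30 days), with mean and SD in black. Psmb10 is higher in the ONH than in the ONP at both times, and Psmc6 and Psme4 are lower in the ONP at 30 than at 7 days without overlap.

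Among the regulatory genes the ATPase Psmc5 (ENSMUSG00000020708, GRCm38 chr11:106256154-106263120, plus strand) had the largest difference. It had 380.0, 444 and 692 CPM in the ONH and 232, 280.1 and 309 CPM in the ONP, with no overlap (log2FC 0.74, SE 0.124, adjusted p = 0.000248 with edgeR). The ubiquitin receptor Psmd4 had 196, 215 and 292 CPM in the ONH and 139, 165 and 188 CPM in the ONP, again without overlap (log2FC 0.42, SE 0.0921, adjusted p = 0.00178). For both genes the highest ONH value was that of replicate 6. Psmd10 (gankyrin), an assembly chaperone of the ATPase ring, was higher with a log2FC of 0.45 (SE 0.103, adjusted p = 0.00255), and Psmc1, Psmc3 and Psmd7 had log2FC of 0.24 to 0.31. Psmd1, a scaffold of the base, had 127, 153 and 174 CPM in the ONH and 169, 181 and 190.1 CPM in the ONP. In this fit it was the regulatory gene called lower (log2FC -0.24, SE 0.0927, adjusted p = 0.0458 with edgeR). DESeq2 called Psmc2, Psmd1 and Psmd3 lower, where 26.0% of the genes with a p-value were called. Psmd1 was called with neither offset for length. With the replicate number as a block, Psmd1 and Psmd7 lost their calls (adjusted p = 0.0531 and 0.0652), and no other member did. Leaving out 1 library kept the calls of Psmc3, Psmd1 and Psmd7 in 4, 6 and 3 of 14 fits, with adjusted p up to 0.089, 0.0808 and 0.13. Psmd14 had 62.6, 76.4 and 81.9 CPM in the ONH and 76.6, 81.6 and 86.1 CPM in the ONP and did not pass the test (log2FC -0.12, SE 0.0799, adjusted p = 0.233). With the transcript length offset described below Psmd14 was called lower, and with coding length it was not called.

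Of the 4 assembly chaperones of the core, Psmg3 and Psmg4 were higher in the ONH at 30 days, and Psmg1 and Psmg2 did not pass the test. Psmg4, which pairs with Psmg3 beneath the alpha ring, had 12.4, 16.03 and 29.8 CPM in the ONH and 3.62, 6.42 and 6.65 CPM in the ONP. The regions did not overlap, and its log2FC of 1.53 was the largest among the members (SE 0.196, adjusted p = 2.66e-05 with edgeR). Psmg3 had a log2FC of 0.59 (SE 0.181, adjusted p = 0.0162), and 26.8% of its exonic bases are shared with Gm26938 on the same strand. Psmc3ip did not pass the test (log2FC 0.11, adjusted p = 0.664).

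Transcript length moved with these differences across the whole table. Over all genes, the median log2FC between ONH and ONP at 30 days was 0.65 in a bin with a median length of 635 bases, 0.30 at 1155 bases, 0.14 at 1570 bases and -0.26 at 3460 bases, and above 0 again at 6192 bases (0.07) and 8391.5 bases (0.12). Core transcripts had a median length of 1160 bases and regulatory transcripts of 1613.5 bases, against 2590 bases over all genes tested. Median GC content was 49.2%, 49.6% and 50.3% in the same order. With each library's trend by transcript length and GC content entered as an offset, 11 members were higher and 3 lower, against 36.4% of all genes called. Core subunits then had 5 genes higher and 1 lower (Psmb2) with a median log2FC of 0.01. Regulatory genes had 3 higher and 2 lower (Psmc2 and Psmd14) with a median of 0.09. The core median was thus no longer above the regulatory one (difference -0.08, against 0.26 without the offset). With coding length in place of transcript length, 18 members were higher and 1 lower, against 36.3% of all genes, and the core and regulatory medians were 0.21 and 0.18. Coding length was at hand for 88.1% of the genes tested, and this alternative was chosen after seeing the data. How the length trend arose was not tested.

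**Figure D3:**
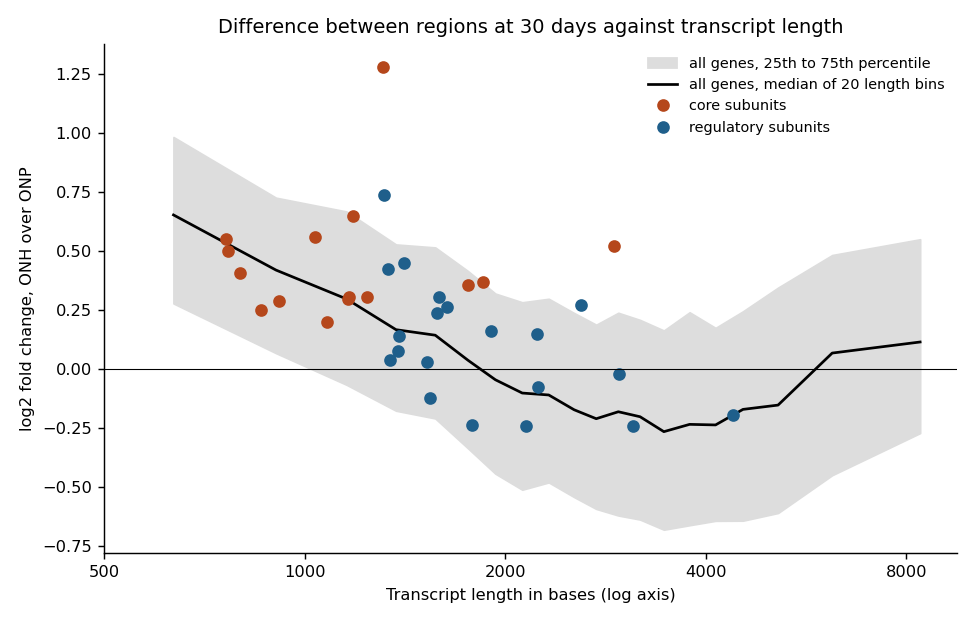
Log2 fold change, ONH over ONP at 30 days, against transcript length in bases (log axis) for core and regulatory genes, with the median (line) and the 25th to 75th percentile (grey) of all genes in 20 length bins. The line falls from 0.65 at 635 bases to -0.26 at 3460 bases and returns to 0.12 at 8391.5 bases, and most core genes lie at lengths where the line is above 0.

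Higher levels in the ONH at 30 days were called in all 3 fits (no offset, transcript length, coding length) for 9 members. These were the core subunits Psma2, Psma3, Psmb4 and Psmb10, the regulatory genes Psmc5 and Psmd10, the activators Psme2 and Psme4, and the chaperone Psmg4. The share of all genes called higher in all 3 fits was not counted, so this number has nothing to be set against. The single fits called 41.8%, 36.4% and 36.3% of all genes in either direction. Psmb10 had a log2FC of 1.04 with the transcript length offset and 1.15 with the coding length offset (adjusted p = 2.77e-05 and 1.62e-05 with edgeR). Psme4, whose transcript of 6491 bases is the longest among the members, had 0.96 and 0.93 (adjusted p = 0.00719 and 0.00814), and Psmg4, whose transcript of 514.5 bases is short, had 0.86 and 1.02. The catalytic subunits Psmb6 and Psmb7 and the structural Psmb3, in contrast, had log2FC of -0.10, -0.01 and -0.01 with the transcript length offset. Psmb5 had 0.01 with that offset and 0.38 with coding length (adjusted p = 0.0133).

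The classes were also compared within each library, from the same values. The mean log2 CPM of core subunits minus that of regulatory genes was 0.21 ± 0.166 (SD, n = 7) in the ONH and -0.14 ± 0.0629 (SD, n = 7) in the ONP at 30 days. The ONH libraries ran from -0.02 to 0.47, with the highest value in replicate 6, and the ONP libraries from -0.23 to -0.07. At 7 days it was 0.05 ± 0.258 (SD, n = 4) in the ONH and -0.24 ± 0.0932 (SD, n = 4) in the ONP. The libraries of the ONH at 7 days had -0.11, -0.03, -0.08 and 0.43, and the highest of them, library 5, stood apart. With the assembly chaperones Psmd5, Psmd9 and Psmd10 left out of the regulatory and Psmb10 out of the core genes, the difference at 30 days was 0.08 in the ONH and -0.22 in the ONP, and at 7 days it was below 0 in both regions (-0.12 and -0.39). This alternative was chosen after seeing the data. The slope of log2 CPM on transcript length over all genes, per doubling of length, had a group mean of -0.02 at 7 and -0.13 at 30 days in the ONH, whereas in the ONP it was 0.18 at 7 and 0.04 at 30 days. It was lowest, -0.28, in replicate 6 of the ONH at 30 days, so the library with the most core over regulatory mRNA was also the one with the steepest fall by length.

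**Figure D4:**
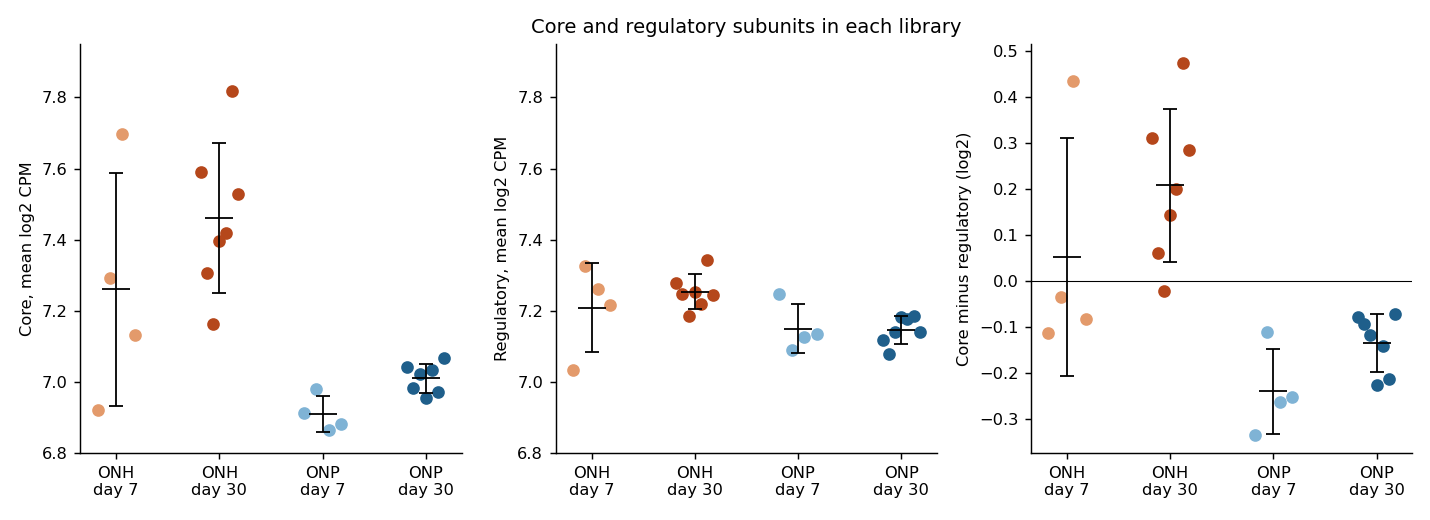
Mean log2 CPM of the 15 core and 20 regulatory genes in the score and their difference, for each library of the 4 groups, with mean and SD in black. The difference is negative in all ONP libraries and ranges from -0.02 to 0.47 in the ONH at 30 days, where the spread of the core mean is wider than that of the regulatory mean.

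At 7 days 2 of the 47 members tested, Psme1 and Psmb10, were higher in the ONH and none was lower, against 13.2% of all genes called (6.34% higher). Psme1 had 102, 108, 139 and 139.8 CPM in the ONH libraries and 54.0, 64.0, 66.9 and 75.8 CPM in the ONP libraries. The regions did not overlap, with a log2FC of 0.93 (SE 0.176, adjusted p = 0.00648 with edgeR). Psmb10 had 92.8, 103, 145 and 197 CPM in the ONH and 52.1, 54.8, 68.8 and 82.1 CPM in the ONP. It did not overlap either (log2FC 1.08, SE 0.258, adjusted p = 0.0199), and its mean ratio to Psmb7 per length was 1.98 ± 0.395 (SD, n = 4) in the ONH and 0.935 ± 0.223 (SD, n = 4) in the ONP. The microglia and macrophage sum was 82.4 to 1036 CPM in the ONH and 905 to 1501 CPM in the ONP at this time. The call of Psmb10 was kept in 5 of 8 fits without 1 library and that of Psme1 in 8 of 8, and Psmb10 lost it without ONP library 2, 5 or 6 (log2FC 0.82 to 1.21 and adjusted p up to 0.0735 over the 8 fits). With the transcript length offset Psme1 was not called (log2FC 0.48, adjusted p = 0.102), while with coding length it was (log2FC 0.70, adjusted p = 0.0200).

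The catalytic subunits and Psme4 were not called at 7 days. Psme4 had a log2FC of -0.90, opposite in sign to that at 30 days, and -1.43 to -0.67 over the fits without 1 library. Without ONH library 5 Psme4 was called lower in the ONH, 1 of 3 members called in that fit, against 12.8% of all genes. Psmb5 had 129, 182, 219.7 and 331 CPM in the ONH and 137, 143, 152 and 157 CPM in the ONP, Psmb6 195 to 367 against 195 to 202 CPM, and Psmb7 49.2 to 79.0 against 56.3 to 67.9 CPM. Library 5 of the ONH was the highest for Psmb5 and Psmb10. Psme2 had 122, 123, 165 and 206 CPM in the ONH and 78.8, 93.5, 101 and 122 CPM in the ONP (log2FC 0.66, SE 0.213, adjusted p = 0.0675 with edgeR). The median log2FC was 0.43 over core and 0.09 over regulatory genes, against 0.07 over all genes, and it was 0.06 and -0.02 with the transcript length offset. Without library 5 of the ONH the core median was 0.25. The 2 comparisons of regions use different libraries. Without an offset, the higher Psme1 and Psmb10 of the ONH were thus each found in separate sets of pools at 7 and 30 days. With the transcript length offset and without ONH library 5 neither was called at 7 days.

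From 7 to 30 days few members changed in the ONP. Of 48 tested, Psmb6 and Psma3 were higher and Psmc6, Psme4 and Psmd3 lower at 30 days, 10.4% in all, against 17.0% of all genes (7.82% higher). Psmc6 (ENSMUSG00000021832, GRCm38 chr14:45329788-45349705, plus strand), an ATPase of the base, had 62.5, 63.9, 64.1 and 66.3 CPM at 7 days, against 43.9, 50.4 and 56.4 CPM (lowest, median and highest) after 30 days. Every 30 day library was below every 7 day library (log2FC -0.40, SE 0.082, adjusted p = 0.00808 with edgeR). Psme4 had 14.5, 15.0, 20.8 and 22.7 CPM at 7 days, against 4.86, 7.09 and 14.2 CPM after 30 days, without overlap. Its log2FC of -1.24 was the largest fall among the members (SE 0.279, adjusted p = 0.0116). Psmd3, a scaffold of the lid, had 172, 180.4, 188 and 191 CPM at 7 days, against 142, 152 and 171 CPM after 30 days, again without overlap (log2FC -0.28, SE 0.0759, adjusted p = 0.0252).

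Both members that rose in the ONP were core subunits, and neither was called with an offset for length. Psmb6 had 195, 199.9, 202 and 202 CPM at 7 days, against 210.5, 249.9 and 283 CPM after 30 days, without overlap (log2FC 0.28, SE 0.088, adjusted p = 0.0458 with edgeR). Psma3 had 168, 175, 178 and 196 CPM at 7 days, against 203, 213 and 228 CPM after 30 days, also without overlap (log2FC 0.23, SE 0.0723, adjusted p = 0.0483). The call of Psmb6 was kept in 3 of 11 fits without 1 library (those without ONP replicate 2, 3 or 5 at 30 days; log2FC 0.25 to 0.32, adjusted p up to 0.102). That of Psma3 was kept in 3 of 11 (without ONP replicate 5 or 7 at 30 days or library 5 at 7 days; log2FC 0.20 to 0.27, adjusted p up to 0.124). Those of Psmc6 and Psme4 were kept in 11 of 11 and with both offsets, and that of Psmd3 in 8 of 11 (lost without ONP library 2, 5 or 6 at 7 days, adjusted p up to 0.102) and with neither offset. With the transcript length offset 0 members were higher and 5 lower at 30 days (Psma6, Psmb7, Psmc6, Psmd6 and Psme4), against 12.5% of all genes called, and with coding length Psmb7, Psmc6 and Psme4 were lower, against 10.1%. Psmb7 had a log2FC of -0.22 without an offset (adjusted p = 0.0897 with edgeR), -0.44 with transcript length (adjusted p = 0.00605) and -0.31 with coding length (adjusted p = 0.0491). Oligodendrocyte markers moved with time in the ONP, with 5 of the 6 lower at 30 days and sums that went from 79836 to 104696 CPM in the 7 day libraries to 24886 to 81736 CPM in the 30 day libraries, and their part in these changes was not tested. Scaling by library size alone moved the median of all genes by 0.11 and gave 7 members higher and 2 lower, against 18.7% of all genes.

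In the ONH no member passed the test between 7 and 30 days (0 of 47 with edgeR, against 0% of 15668 genes). At an unadjusted p under 0.05 there were 3 members, against 13.9% of all genes, and DESeq2 called no member and 2.49% of all genes. The members with the smallest p-values were Psme1, Psmb1 and Psmb3. Psme1 had 102, 108, 139 and 139.8 CPM at 7 days, against 64.6, 102 and 113 CPM after 30 days (log2FC -0.43, SE 0.173, adjusted p = 0.307). Psmb1 had 134, 153, 155 and 206 CPM at 7 days, against 169, 216 and 252 CPM after 30 days (log2FC 0.37, SE 0.153, adjusted p = 0.308), and Psmb3 107, 162, 166 and 208 against 177, 217 and 266 CPM (log2FC 0.38, SE 0.172, adjusted p = 0.353). All 3 overlapped between times. The median log2FC was 0.17 over core and -0.03 over regulatory genes, against -0.02 over all genes. The core median was 0.05 without library 1 of the 7 day ONH group, 0.10 without replicate 6 of the 30 day group and 0.30 without library 5 of the 7 day group, and it was -0.01 with the transcript length offset.

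**Figure D5:**
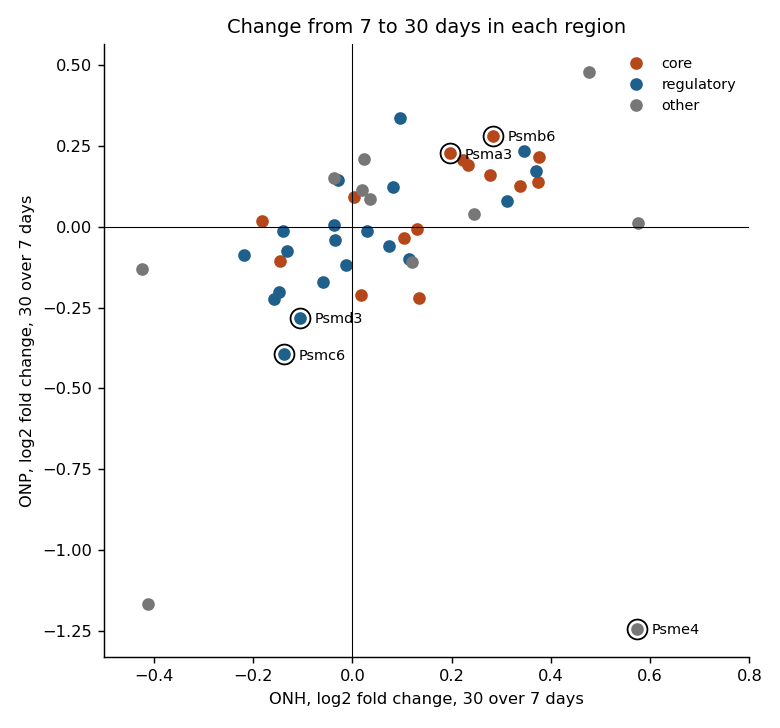
Log2 fold change from 7 to 30 days in the ONH (horizontal) and the ONP (vertical) for 46 members, with rings around those called in the ONP. Psma8, at 0 to 58 counts per library and with a log2FC of -1.58 in the ONH, was tested in both regions but is not drawn. Among those drawn Psme4 lies at 0.57 in the ONH and -1.24 in the ONP.

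The difference between regions in the change over time was tested as an interaction, (ONP 30 minus 7) minus (ONH 30 minus 7), and 0 of 48 members passed it with edgeR, against 0.543% of all genes. At an unadjusted p under 0.05 there was 1 member, Psme4, against 12.6% of all genes. Its interaction was -1.81 (SE 0.492, adjusted p = 0.0903 with edgeR), while DESeq2 called it (adjusted p = 0.0232), together with 2.28% of all genes, and limma-voom did not. Psme4 had 4.70, 5.77, 9.82 and 18.5 CPM in the ONH at 7 days, where library 5 was the highest, and 10.2 to 23.7 CPM at 30 days (log2FC 0.57, SE 0.376, adjusted p = 0.505). Without library 5 of the ONH at 7 days the interaction of Psme4 was -2.33 and passed the test (adjusted p = 0.0151), and over the other 21 fits without 1 library it did not. The change over time in Psme4 was therefore called in the ONP, whereas its difference from the change in the ONH was called in some fits only.

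Genes that work with the proteasome but are outside the rule were followed in a list of 33. Between ONH and ONP at 30 days 10 of them were higher, 6 lower and 17 not called, where 21.8% of all genes were higher and 41.8% called. The other immunoproteasome subunits, Psmb8 and Psmb9, were higher in the ONH (log2FC 1.06, SE 0.297, and 1.19, SE 0.236, adjusted p = 0.00926 and 0.000913 with edgeR). Psmb8 had 76.7 to 190 CPM in the ONH and 35.6 to 141 CPM in the ONP, with overlap, and Psmb9 14.8 to 50.7 against 11.4 to 23.9 CPM. Pomp, the maturation factor of the core, and Sem1, a small subunit of the lid, were higher by log2FC of 0.91 and 0.97. Their transcripts have 1579 and 1472 bases. The receptor Adrm1, Fbxo7, the ligase Ube3a and the ubiquitin genes Ubb and Rps27a were among those higher. The ubiquitin-activating enzyme Uba1 (log2FC -0.64), the shuttle Ubqln1 (-0.78), Zfand5 (-0.73), Ddi2, the protease that activates NRF1, and Nploc4 (-0.43) were among those lower in the ONH. Nfe2l1 itself did not differ past the test (log2FC -0.18, adjusted p = 0.182).

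At 7 days Psmb8 (log2FC 1.19, SE 0.268, adjusted p = 0.0152 with edgeR) and Sem1 were higher and Ubqln1 lower in the ONH among the 33 genes, where 13.2% of all genes were called. Psmb9 did not pass (log2FC 1.07, adjusted p = 0.0589 with edgeR). In the ONP from 7 to 30 days Nfe2l1 rose, with 215 to 260.4 CPM in the 7 day libraries and 255 to 400.2 CPM in the 30 day libraries, which overlapped (log2FC 0.47, SE 0.116, adjusted p = 0.0180). Pomp (log2FC 0.28, adjusted p = 0.0369) rose as well, and Uba1, Vcp and the proteasome partner Ecpas fell. Of the 33 genes 3 were higher and 3 lower in this comparison, against 17.0% of all genes called. In the ONH over time and in the interaction 0 of the 33 genes passed the test with edgeR, against 0% and 0.543% of all genes. The region comparisons and the time comparisons share libraries, so their values are given side by side and not as separate evidence.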

How the data were processed

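Ribosome-associated mRNA of astrocytes was sequenced in 22 libraries, 4 ONH and 4 ONP at 7 days and 7 ONH and 7 ONP at 30 days. Alignment was with STAR 2.6.1d, from 150 base paired reads, and quantification with Salmon 0.14.2 on Ensembl release 94. The values deposited by the authors are estimated counts, not normalized and in whole numbers. A second table deposited by the authors holds log2 values (DESeq2 1.34.0, variance stabilized and scaled for library size) and served only for an alternative class difference by library. The kit does not keep strand.

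Columns at 7 days carried numbers that do not match the sample labels, so these libraries were assigned to groups only. Genes were filtered with filterByExpr, normalized by TMM and tested with edgeR 4.0.16 (quasi-likelihood, Benjamini-Hochberg over all genes, adjusted p under 0.05) in R 4.3.3, each comparison on its own groups and the interaction on all. DESeq2 1.42.0, limma 3.58.1, other scalings and filters, leaving out each library, and offsets for length and GC content (splines with 4 degrees of freedom) were alternatives. The scripts were tested on simulated data. ONH and ONP came from the same mice per the study's methods. At 30 days, where columns carry the replicate numbers of the labels, the deviations of same-numbered pools correlated by 0.0746 to 0.494 over 15133 genes, with 5 of 7 pairs over 0.1 and 3 of 7 best with their own number, and the replicate number as a block was an alternative. Lengths and positions were from GENCODE M21 (GRCm38), promoters from RefSeq.

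CPM values are counts scaled by TMM library sizes, and means of log2 CPM used a prior count of 2. Full values were given for the catalytic subunits, Psmb10, Psmd4, Psmd14, Psme1, Psme2 and Psme4, and for the 4 members called with the smallest p in each direction (3 where none was called). Members and lists were chosen with earlier results of these data known. Some genes of the list of proteasome partners are counted but not reported here by name.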

Additional observations from a re-analysis of the deposited data

Results flagged for a closer look

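Among 84 groups of values examined (the 18 members with full values and the class differences by library), 8 held 1 library far from the others, where chance gives about 1 in 20. In the ONH at 30 days, replicate 6 was far above the other 6 libraries for Psmb5 (388.7 CPM, others 193 to 262 CPM), Psmc5 (692.5 CPM, others 380.0 to 499 CPM), Psmd4 (292.3 CPM, others 196 to 224 CPM) and Psmg4 (29.8 CPM, others 12.4 to 18.6 CPM). This library also had the lowest slope on transcript length, -0.28 per doubling. Without it 26 members were called between the regions at 30 days, against 38.6% of all genes. The core median log2FC was then 0.29, against 0.37 with that library. In the ONH at 7 days, library 5 had a core minus regulatory difference of 0.43, while the other 3 libraries had -0.11 to -0.03. Psmg4 was low in ONP replicate 6 at 30 days (3.62 CPM, others 6.04 to 6.65 CPM). In the ONP at 7 days, Psmb1 was high in library 2 (163.4 CPM, others 141 to 144 CPM) and Psmc5 in library 1 (296.4 CPM, others 244 to 249 CPM).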

How the results depend on the processing

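Alternatives other than leaving out 1 library gave 188 counts of members called or class values that were taken as unchanged. A further 26 class values moved by more than the spread between libraries, 8 counts were larger and 6 smaller. Unchanged meant a count of a similar size, whichever genes were called, or a class value that moved by less than that spread. The sign could still turn, as for the core median of the ONH over time, which went from 0.17 to -0.01 with the transcript length offset. The cause was not tested unless stated. With the replicate number as a block, which pairs ONH and ONP at 30 days, 25 members were called, against 44.4% of all genes. Apart from Psmd1 and Psmd7 no call changed. At 7 days no paired fit was run, since the numbers in the columns are not the replicate numbers of the labels. Between ONH and ONP at 30 days the length and GC offset gave 14 members called, against 36.4% of all genes. The core median was then 0.012 and the core minus regulatory difference -0.077. The block with that offset gave 12 members, against 40.9% of all genes, and values of 0.010 and -0.075. The coding length offset gave medians of 0.21 and 0.18 and a difference of 0.034. Directions turned for Psma6 (-0.13 with the offset, -0.14 with block and offset), Psmb2 (-0.22, -0.22, and -0.018 with coding length), Psmb3 (-0.0072 and -0.0046), Psmb6 (-0.10 and -0.099) and Psmb7 (-0.011 and -0.020). With no filter beyond 1 count 20 members were called there, against 22.1% of all genes. Without the assembly chaperones and Psmb10 the mean core minus regulatory difference by library moved to -0.39 in the ONP at 7 days and -0.22 in the ONP at 30 days.

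In the ONP from 7 to 30 days DESeq2 called 11 members, against 13.9% of the genes with a p-value. Library size scaling called 9, against 18.7% of all genes (core median 0.24, regulatory 0.064). A minimum of 10 counts in every sample gave 8, against 20.3%, and coding length 3, against 10.1% (core 0.015, difference 0.063). No filter and a fit of all 4 groups each gave 2, against 7.75% and 7.10%. The transcript length offset gave medians of -0.058 and -0.16. For ONH against ONP at 7 days DESeq2 called 6, against 12.7% of the genes with a p-value. Library size scaling also called 6, against 15.1% of all genes (regulatory median 0.20). All 4 groups in 1 fit called 10, against 22.6% of all genes. The offset gave medians of 0.062 and -0.025 and a difference of 0.087, and coding length a difference of 0.099. The offset without ONH library 5 gave 1 call, Psme4 lower in the ONH, against 11.2% of all genes. Psmb10 and Psme1 were not called in that fit. Its medians were -0.020 and -0.029 and its difference 0.0092. In the interaction DESeq2 called 1, against 2.28% of all genes. The offset without that library also called 1, against 1.59% of all genes (regulatory median -0.13). The regulatory median there was 0.092 with library size scaling and -0.14 with the offset. Library size scaling shifted the median of all genes by 0.11 in the ONP over time, 0.11 between regions at 7 days and 0.15 in the interaction. Coding length, the block with an offset, the offset without library 5 and the class difference by library without Psmb10 and the chaperones were chosen after seeing the data.

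Leaving out 1 library at a time gave 24 to 31 members called between regions at 30 days (regulatory median 0.058 to 0.14), 1 to 4 at 7 days, 0 in the ONH over time (core median 0.052 to 0.30, regulatory -0.062 to 0.0059, difference 0.11 to 0.33), and 0 to 1 in the interaction (core median -0.25 to 0.070, regulatory -0.085 to 0.033, difference -0.19 to 0.090). In the ONP over time it gave 2 to 6 members (core median 0.090 to 0.18, regulatory -0.090 to 0.0091, difference 0.14 to 0.27). The shares of all genes called in these fits were 37.0% to 41.9% between regions at 30 days and 7.26% to 15.8% at 7 days. They were 0% to 1.04% in the ONH over time, 9.12% to 20.9% in the ONP over time and 0.127% to 1.86% in the interaction. With 4 libraries per region at 7 days, differences near the spread between pools could not be detected. The lowest genes, Psma8 and Psmb11, ran from 0 to 58 and from 0 to 82 counts per library, so some libraries were below the limit of 3 counts.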
